A study of Homo sapiens with 12 samples.

Results

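The comparison described here set SKM1 cells given APR-246 and 5-azacytidine together against untreated SKM1 cells. It rested on 6 of the 12 arrays of the series, the 3 labelled APR-AZA and the 3 labelled NT, and on every row of the array table with 1 gene symbol, which gave 28125 genes. SKM1 is an established human cell line from a myeloid leukaemia, and all 12 arrays came from it. Both drugs were dosed at their IC50, and the cells were harvested for RNA after 18 h. The other 6 arrays held cells given APR-246 alone (APR) or 5-azacytidine alone (AZA), 3 each. Neither the concentrations nor any vehicle for NT cells is stated in the labels. The results come from 1 cell line at 1 dose pair and 1 time, and the labels name no batch. With 3 arrays a group, the number of arrays limits the precision of every value.

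5-Azacytidine is a cytidine analogue that cells build into RNA and DNA, where it traps the enzymes that methylate cytosine. APR-246 is a prodrug whose product binds thiol groups, among them those of glutathione and of proteins. Shortage of amino acids or haem, or unfolded protein in the endoplasmic reticulum, raises the transcription factor ATF4 through phosphorylation of the initiation factor eIF2, and electrophiles release the factor NRF2 from its inhibitor KEAP1. Both factors turn on the cystine importer that feeds glutathione synthesis.

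Of 12 myeloid markers 11 were measured, and they read between 6.40 and 12.99 on the log2 scale in NT, against a median of 4.74 over all genes. Lysozyme (LYZ) and myeloperoxidase (MPO) were the brightest of them. Markers of T, NK, B and erythroid cells, megakaryocytes and fibroblasts lay between 2.88 and 6.49 in NT, while the epithelial marker EPCAM lay at 9.67. Of these other markers NKG7 of NK cells (6.32 in NT, 7.10 in APR-AZA) and the keratin KRT19 (4.83 and 5.60) were called higher and EPCAM lower (9.33 in APR-AZA), and their part in the results was not tested. The calls of KRT19 and EPCAM were lost without APR-AZA replicate 2 or NT replicate 2 or 3, KRT19 also without APR-AZA replicate 1, and EPCAM also without APR-AZA replicate 3 and with NT and APR-AZA fitted alone. The summed signal of the myeloid markers was 14.06 to 14.17 (log2) in NT and 13.43 to 13.54 in APR-AZA, with 2 of 11 called higher and 6 lower. In these bulk samples fewer cells of a type and less RNA per cell cannot be told apart. Across all rows the correlation was 0.994 to 0.996 within NT and within APR-AZA, and 0.978 to 0.981 between them.

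Treatment with both drugs changed 6279 of 28125 genes, 22.3%, at a limma adjusted p under 0.05. Of these, 2924 were higher (10.4% of all genes tested) and 3355 lower (11.9%). Changes of at least 2-fold were called upwards in 530 genes (1.88%) and downwards in 480 (1.71%). Changes of at least 4-fold were called in 104 (0.37%) and 34 (0.121%). The 3 APR-AZA arrays lay wholly above the 3 NT arrays for 4744 genes (16.9%) and wholly below them for 5097 (18.1%). Among called genes the median size of change was 0.56 on the log2 scale, and the median over all genes was 0.00. Calls depended on brightness, with 1.28% called higher and 1.14% lower among the 9375 dimmest genes, and 22.1% higher and 27.6% lower among the 9375 brightest. Because no label states that the 3 arrays of a group stem from separate cultures, each p-value measures array-to-array spread alone, and that spread may be technical.

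**Figure D1:**
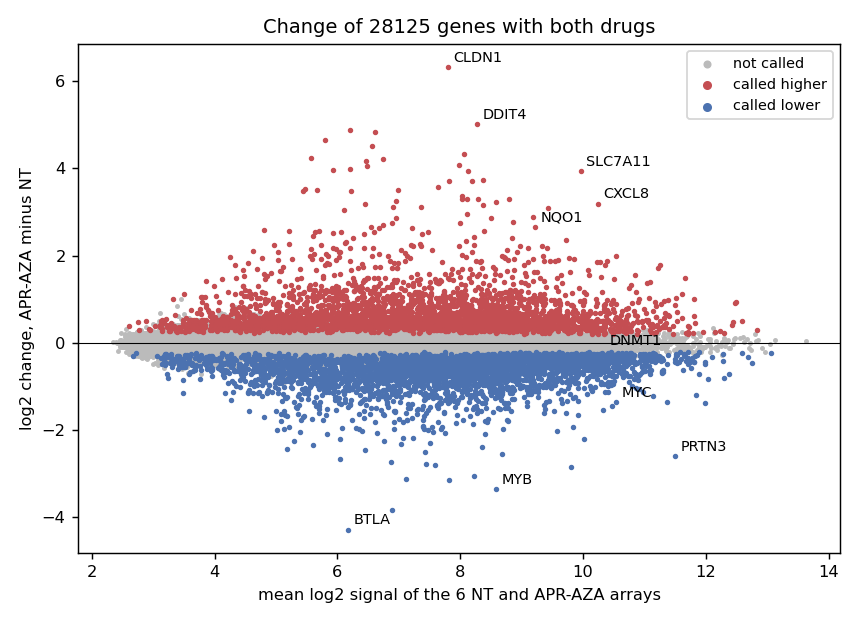
Log2 change (APR-AZA minus NT) of 28125 genes against the mean log2 signal of the 6 arrays, 1 point a gene, red where called higher, blue where called lower and grey where not called. The increases reach further than the decreases, from CLDN1 at 6.32 to BTLA at -4.28.

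The largest increase was in CLDN1, which encodes a claudin of tight junctions. CLDN1 read 4.56, 4.60 and 4.76 in the NT arrays and 10.75, 11.05 and 11.08 in the APR-AZA arrays, a 79.7-fold difference (6.32 ± 0.15 on the log2 scale, SE, adjusted p = 5.48e-11). DDIT4 read 6.21, 5.66 and 5.44 in the NT arrays and 10.77, 10.81 and 10.75 in the APR-AZA arrays, so this stress-induced inhibitor of the growth kinase mTORC1 was 32.2-fold higher. In both genes the lowest APR-AZA array lay far above the highest NT array. The 15 largest increases were chosen among genes whose groups did not overlap, so the separation itself carries no test. C5AR1 stood at 4.51, 4.14 and 4.28 in NT and 8.93, 8.85 and 8.69 in APR-AZA, which made the receptor for the complement fragment C5a 22.9-fold higher. ITGAX stood at 6.12, 5.71 and 6.01 in NT and 10.09, 9.92 and 10.04 in APR-AZA, and this integrin, CD11c, marks monocytes and dendritic cells (16.8-fold higher). SLC7A11 stood at 7.98, 7.87 and 8.15 in NT and 11.89, 11.96 and 11.95 in APR-AZA and had the largest change relative to its standard error of the 15, and the gene encodes the cystine subunit of the transporter that supplies glutathione synthesis (15.3-fold higher, adjusted p = 5.3e-11).

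The remaining 10 of the 15 largest increases lay between 15.5-fold and 29.3-fold. Noncoding transcripts were 4 of them, LUCAT1 (29.3-fold), BET1-AS1 (25.1-fold), DLGAP1-AS2 (15.5-fold) and the pseudogene NMRAL2P (16.6-fold). ORM1, an acute-phase glycoprotein of plasma, was 28.5-fold higher, though its probes may also read its near copy ORM2. CD101, a leukocyte surface protein of the immunoglobulin family, was 19.9-fold higher, and PPP1R17, an inhibitor of protein phosphatases, 18.9-fold higher. S100P, a calcium-binding protein, was 18.5-fold higher, and P3H2, which hydroxylates collagen prolines, 17.9-fold higher. Over the 15 genes the standard error lay between 0.09 and 0.23 (log2), and the highest adjusted p was 5.46e-08.

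**Figure D2:**
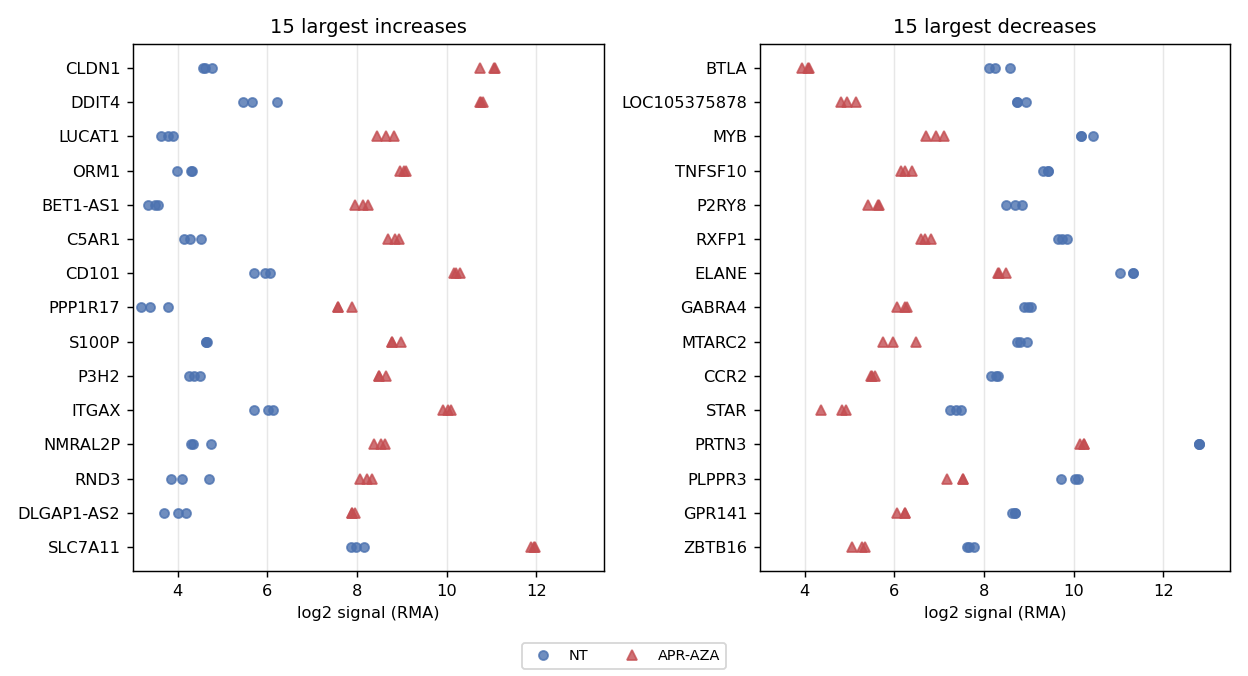
Log2 signal of the 15 genes with the largest called increases (left) and decreases (right), with 1 point an array, circles for the 3 NT arrays and triangles for the 3 APR-AZA arrays. In each of the 30 genes the 2 groups are apart, which the choice of genes required.

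Among the decreases BTLA, an inhibitory receptor of lymphocytes and some myeloid cells, moved most. BTLA read 8.12, 8.26 and 8.57 in the NT arrays and 4.10, 3.94 and 4.07 in the APR-AZA arrays, a signal 19.4-fold lower (-4.28 ± 0.13, SE, adjusted p = 2.18e-10). MYB stood at 10.16, 10.17 and 10.44 in NT and 7.10, 6.93 and 6.70 in APR-AZA, so this transcription factor, which keeps blood progenitors dividing, was 10.2-fold lower. TNFSF10 stood at 9.42, 9.31 and 9.43 in NT and 6.15, 6.38 and 6.23 in APR-AZA, and this is the gene for TRAIL, a ligand of death receptors (8.77-fold lower). In all 3 genes every APR-AZA array lay below every NT array, which the choice of genes required. BTLA ended below the median gene of the array. ELANE stood at 11.32, 11.32 and 11.03 in NT and 8.49, 8.33 and 8.31 in APR-AZA, and PRTN3 stood at 12.80, 12.81 and 12.80 in NT and 10.23, 10.23 and 10.14 in APR-AZA, and these 2 serine proteases of neutrophil granules were 7.21-fold lower and 6.07-fold lower with bright signals in both groups.

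Surface receptors made up 5 of the other 10 large decreases. P2RY8, a G-protein-coupled receptor of germinal centre B cells, was 8.64-fold lower, RXFP1, the relaxin receptor, 8.25-fold lower and GABRA4, a subunit of GABA-A receptors, 6.90-fold lower. CCR2, through which monocytes follow the chemokine CCL2, was 6.67-fold lower, and the orphan receptor GPR141 5.65-fold lower. ZBTB16, the progenitor factor PLZF, was 5.52-fold lower, and STAR, which moves cholesterol into mitochondria, 6.31-fold lower. LOC105375878, MTARC2 and PLPPR3 were 14.3-fold lower, 6.83-fold lower and 5.82-fold lower.

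The remaining results follow 36 gene lists, whose 1041 entries held 956 measured members and 928 different genes. A list is described by how many of its measured members were called in each direction and by the median log2 change, to be read against 10.4% called higher, 11.9% called lower and a median of 0.00 over all genes, and for lists of bright genes against the 22.1% and 27.6% of the brightest genes. The lists and their members were chosen with earlier results of these data known, so their shares and their ranking carry no test. Members that moved against their list are named too where they are few, a choice made once their values had been seen.

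**Figure D3:**
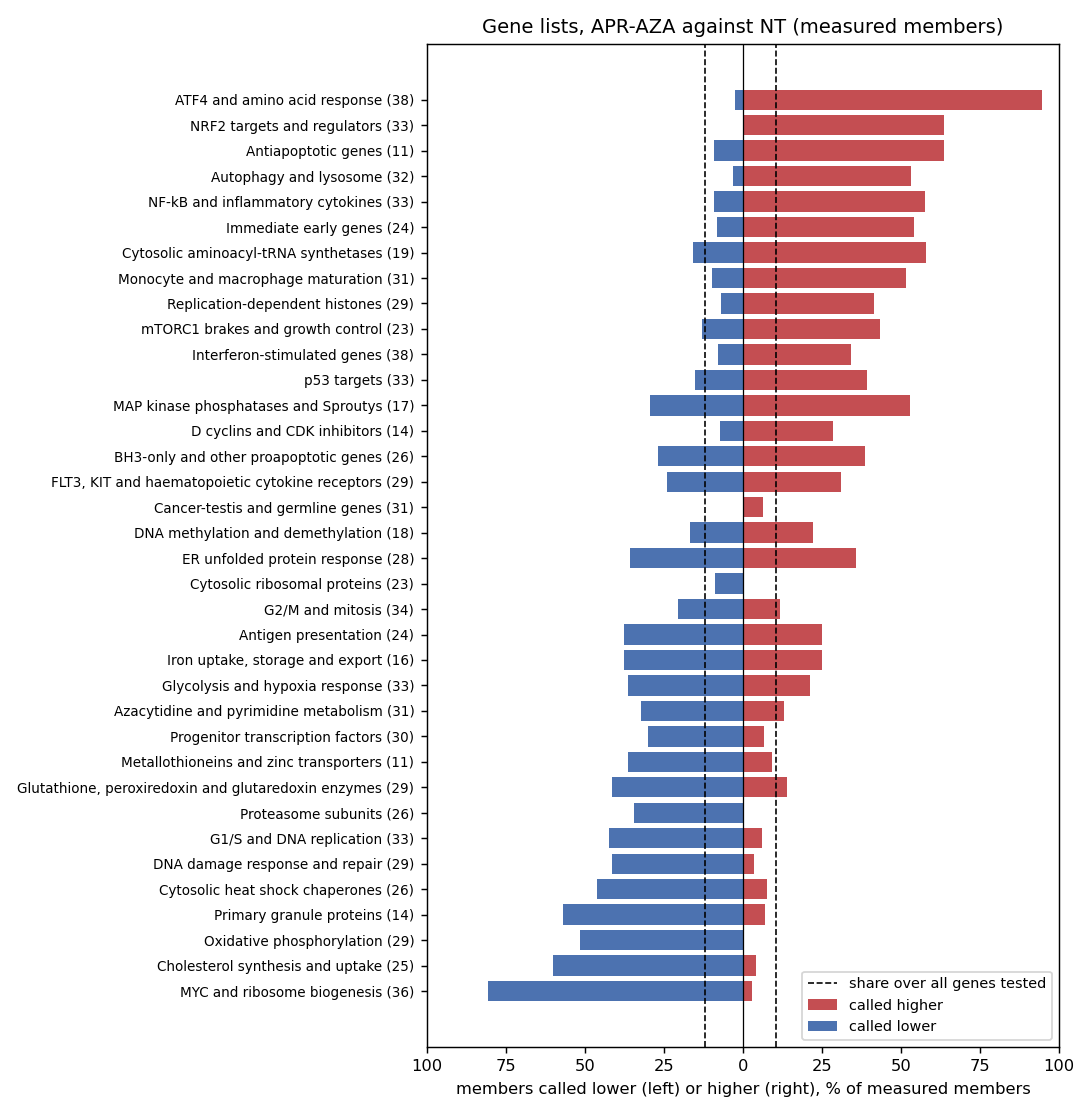
Share of each list's measured members (number in brackets) called higher, bars to the right, or lower, bars to the left, with both drugs against NT, in percent. Dashed lines mark the shares over all genes, 10.4% higher and 11.9% lower, and the longest bars belong to the ATF4 list (94.7% higher) and to MYC and ribosome biogenesis (80.6% lower).

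36 of 38 measured ATF4 targets and amino acid response genes rose with both drugs and 1 fell, with a median of 1.47 on the log2 scale, the highest of the 36 lists. Beside DDIT4 and SLC7A11 the largest increases were in CHAC1, an enzyme that breaks glutathione down, and ALDH1L2, a mitochondrial folate enzyme. CHAC1 read 6.52, 6.67 and 6.31 in the NT arrays and 10.23, 10.17 and 10.30 in the APR-AZA arrays, and was 13.3-fold higher (3.73 ± 0.12, SE, adjusted p = 2.48e-10). ALDH1L2 stood at 6.71, 6.37 and 6.85 in NT and 10.01, 9.94 and 9.88 in APR-AZA and was 9.87-fold higher. ATF3, a partner factor of this response, was 3.78-fold higher, with a wide spread among its NT arrays (4.63, 3.75 and 4.52). The member that fell was ALDH18A1, which makes the precursor of proline, at -0.64 ± 0.10, and PYCR1, the last enzyme of proline synthesis, was not called at 0.18 ± 0.12.

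To set sequence beside these values, the 250 bases upstream of the annotated start were searched on both strands for TGATGNAA, the core of the composite site that ATF4 binds with C/EBP factors. RefSeq promoters (GRCh38.p14) were at hand for 30 of the 38 members, and 3 of the 30 (10%) held the letters, against 3.19% of 27305 promoters. A match is a description of letters and not a shown binding site. DDIT4, with the largest increase of the list, held no match. The 3 members with a match were CHAC1, ATF3 and ASNS, which makes asparagine and was 8.45-fold higher. Their windows are CHAC1 (chr15:40953221-40953470, + strand), ASNS (chr7:97872409-97872658, - strand) and ATF3 (chr1:212565157-212565406, + strand), printed 5′ to 3′ on the strand of the gene with the match in capitals. In CHAC1 the match reads on the opposite strand and begins 209 bases before the start, in ASNS 68 bases and in ATF3 191 bases before it.
CHAC1: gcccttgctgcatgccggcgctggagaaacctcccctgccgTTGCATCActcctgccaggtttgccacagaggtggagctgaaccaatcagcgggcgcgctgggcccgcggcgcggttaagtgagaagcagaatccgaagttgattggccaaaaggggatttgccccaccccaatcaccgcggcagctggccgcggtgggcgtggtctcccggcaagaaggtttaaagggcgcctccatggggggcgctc
ASNS: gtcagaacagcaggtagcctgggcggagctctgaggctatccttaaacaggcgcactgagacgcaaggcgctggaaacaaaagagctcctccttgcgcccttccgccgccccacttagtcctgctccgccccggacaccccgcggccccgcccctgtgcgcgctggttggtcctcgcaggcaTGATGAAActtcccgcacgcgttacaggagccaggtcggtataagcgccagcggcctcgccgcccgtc
ATF3: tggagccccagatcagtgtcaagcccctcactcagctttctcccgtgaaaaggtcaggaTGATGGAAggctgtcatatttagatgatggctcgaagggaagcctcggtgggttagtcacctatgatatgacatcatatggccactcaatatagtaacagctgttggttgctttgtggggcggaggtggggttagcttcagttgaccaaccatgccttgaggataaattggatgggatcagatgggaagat

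Cytosolic aminoacyl-tRNA synthetases, which load amino acids onto tRNAs, rose in 11 of 19 members and fell in 3, with a median of 0.48. WARS1 read 7.64, 7.83 and 7.73 in the NT arrays and 10.55, 10.69 and 10.62 in the APR-AZA arrays, so the tryptophan enzyme was 7.41-fold higher. The cysteine, serine and methionine enzymes CARS1, SARS1 and MARS1 were 3.93-fold higher, 3.03-fold higher and 2.93-fold higher. The members that fell were both subunits of the phenylalanine enzyme, FARSA at -0.44 ± 0.12 and FARSB at -0.75 ± 0.07, and the lysine enzyme KARS1 at -0.37 ± 0.08. FARSA lost its call without NT replicate 1 (adjusted p = 0.0648). Of 23 genes that restrain or tune mTORC1 10 rose and 3 fell. The leucine sensor SESN2 was 7.73-fold higher (6.62, 6.81 and 6.46 in NT against 9.70, 9.50 and 9.54) and the translation repressor EIF4EBP1 1.99-fold higher, whereas SESN3 of the same family was 2.77-fold lower (8.89, 8.88 and 9.10 against 7.66, 7.37 and 7.43).

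NRF2 targets and regulators rose in 21 of 33 members and fell in none, with 12 not called and a median of 0.70. The largest increase was in SLC7A11 (3.93 on the log2 scale), which also stands on the ATF4 list. NQO1 read 7.97, 7.85 and 7.85 in the NT arrays and 10.56, 10.49 and 10.60 in the APR-AZA arrays, which made this quinone reductase 6.31-fold higher (2.66 ± 0.09, SE, adjusted p = 6.82e-10). OSGIN1 stood at 5.58, 5.19 and 5.31 in NT and 7.83, 7.99 and 8.15 in APR-AZA, and this growth inhibitor induced by oxidative stress was 6.20-fold higher. SRXN1 stood at 6.29, 6.20 and 6.15 in NT and 8.76, 8.77 and 8.71 in APR-AZA, and this sulfiredoxin, which repairs oxidised peroxiredoxins, was 5.78-fold higher. The haem oxygenase HMOX1 moved less, from 5.36, 5.16 and 5.60 in NT to 5.94, 5.84 and 5.82 in APR-AZA (1.41-fold higher, adjusted p = 0.00393).

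The same 250-base windows were searched for TGACNNNGC, the core of the antioxidant response element that NRF2 binds with small MAF proteins. It was found in 6 of the 25 members with a promoter (24.0%) and in 11% of 27305 promoters. NQO1, OSGIN1 and SRXN1 held no match. Of the 6 holders GCLM (0.98 on the log2 scale), ABCB6 (0.32) and CBR1 (-0.01) moved least. The 3 holders with the largest increases were ME1, malic enzyme (3.72-fold higher), TXNRD1, thioredoxin reductase (3.61-fold higher), and PGD of the pentose phosphate pathway (2.78-fold higher), 3 enzymes that make or use NADPH. Their windows are ME1 (chr6:83431052-83431301, - strand), TXNRD1 (chr12:104215529-104215778, + strand) and PGD (chr1:10398814-10399063, + strand). The match in capitals begins 137, 99 and 201 bases before the start, on the strand of the gene in ME1 and TXNRD1 and on the other strand in PGD.
ME1: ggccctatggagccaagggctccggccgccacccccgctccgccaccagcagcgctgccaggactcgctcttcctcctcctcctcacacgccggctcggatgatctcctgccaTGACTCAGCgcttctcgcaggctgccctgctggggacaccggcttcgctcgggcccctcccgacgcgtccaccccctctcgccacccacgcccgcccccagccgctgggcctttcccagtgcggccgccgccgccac
TXNRD1: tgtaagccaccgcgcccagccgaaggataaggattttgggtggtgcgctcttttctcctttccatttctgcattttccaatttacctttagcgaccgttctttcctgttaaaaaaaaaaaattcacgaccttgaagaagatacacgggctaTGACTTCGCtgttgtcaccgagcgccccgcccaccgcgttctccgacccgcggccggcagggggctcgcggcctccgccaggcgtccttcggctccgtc
PGD: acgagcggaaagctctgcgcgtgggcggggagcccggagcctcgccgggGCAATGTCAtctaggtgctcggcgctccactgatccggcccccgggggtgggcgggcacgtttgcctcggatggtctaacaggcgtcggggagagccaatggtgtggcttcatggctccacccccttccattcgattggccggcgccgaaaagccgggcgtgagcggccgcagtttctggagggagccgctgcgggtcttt

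Other enzymes of the thiol system moved in both directions. Of 29 glutathione, peroxiredoxin and glutaredoxin genes 4 rose (13.8%) and 12 fell (41.4%), with a median of -0.09. Of all genes 10.4% rose and 11.9% fell, and of the brightest 22.1% and 27.6%. Beside the rise of CHAC1, its paralogue CHAC2 was 2.04-fold lower, GGCT, which acts on the same pathway of glutathione breakdown, 2.10-fold lower, and PRDX4, the peroxiredoxin of the endoplasmic reticulum (ER), 2.05-fold lower. CHAC2 stood at 6.66, 6.67 and 6.70 in NT and 5.75, 5.45 and 5.73 in APR-AZA, the opposite course to CHAC1.

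Metal handling was split. Among 11 metallothionein and zinc transport genes 1 rose (9.09%) and 4 fell (36.4%, against 11.9% of all genes and 27.6% of the brightest). MT2A stood at 5.53, 5.63 and 5.43 in NT and 6.66, 6.75 and 6.81 in APR-AZA (2.32-fold higher), while MT1X of the same family stood at 8.95, 8.76 and 8.76 in NT and 7.83, 7.92 and 8.06 in APR-AZA (1.85-fold lower), and probes of this family may read each other's transcripts. The zinc importer SLC39A10 and exporter SLC30A1 were 1.71-fold lower and 1.34-fold lower. Of 16 iron genes 4 rose and 6 fell, and the number that fell was 5 to 7 over the alternative settings. Of all genes 10.4% rose and 11.9% fell, and of the brightest 22.1% and 27.6%. The share of iron genes that rose was thus close to that of the brightest genes. The ferritin light chain FTL was 1.92-fold higher, and genes of iron uptake and export were lower, the ferrireductase STEAP3 by 3.55-fold, the exporter SLC40A1 by 2.95-fold and the transferrin receptor TFRC by 1.5-fold.

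Cytosolic heat shock chaperones fell in 12 of 26 members and rose in 2, with a median of -0.24. HSPA4L, an HSP110-type chaperone, was 2.51-fold lower (10.47, 10.59 and 10.69 against 9.29, 9.26 and 9.23), the HSP90 partner FKBP4 1.80-fold lower and the small chaperone HSPB1 1.61-fold lower. The 2 that rose were DNAJB4 (1.74-fold higher) and SERPINH1, the collagen chaperone (1.59-fold higher). Of 28 genes of the unfolded protein response of the ER, 10 were higher and 10 lower (35.7% each). Over all genes the shares were 10.4% and 11.9%, and over the brightest 22.1% and 27.6%. EDEM1, which hands misfolded glycoproteins over for degradation, was 2.58-fold higher (8.98, 8.89 and 9.06 against 10.38, 10.33 and 10.31) and the stress sensor ERN1 2.11-fold higher. DERL3, of the degradation channel, was 2.41-fold lower and the chaperone cofactor SDF2L1 2.32-fold lower.

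Proteasome subunits fell in 9 of 26 members, 34.6% against 27.6% of the brightest genes, and rose in none, by small amounts, and the 3 largest of them were PSMD12 (1.39-fold lower), PSMB3 (1.38-fold lower) and PSMA2 (1.33-fold lower), with PSMD6 next at 1.32-fold. PSMA2 lost its call in 6 of 18 alternative settings (adjusted p up to 0.132). Autophagy and lysosome genes rose in 17 of 32 members and fell in 1, ATG5, which acts in autophagosome formation, at -0.35 ± 0.11. ATG5 lost its call without APR-AZA replicate 2 or 3 or NT replicate 1 or 3 (adjusted p = 0.0945 to 0.114). SQSTM1 stood at 9.66, 9.63 and 9.35 in NT and 11.54, 11.53 and 11.55 in APR-AZA, so the cargo receptor p62 was 3.98-fold higher. TFE3, a transcription factor for lysosome genes, was 2.87-fold higher, the LC3-like protein GABARAPL1 2.48-fold higher and the protease CTSD 1.91-fold higher.

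MYC and ribosome biogenesis fell in 29 of 36 members and rose in 1, with a median of -0.64, the lowest of the 36 lists. MYC read 11.30, 11.23 and 11.12 in the NT arrays and 9.92, 9.86 and 9.81 in the APR-AZA arrays, a signal 2.56-fold lower (-1.35 ± 0.09, SE, adjusted p = 1.32e-07). The rise was in MXD1, which competes with MYC for its partner MAX, at 7.32, 7.55 and 7.31 in NT and 9.32, 9.25 and 9.23 in APR-AZA (3.67-fold higher). UTP20 and RRS1, which process and assemble ribosome precursors, were 3.05-fold lower and 2.49-fold lower. Of a chosen list of 32 ribosomal proteins of the cytosol 23 were measured. By contrast, 2 of the 23 fell, 8.70% against 11.9% of all genes and 27.6% of the brightest. Those 2 were the variant RPS27L (1.61-fold lower) and RPL6 (1.33-fold lower).

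Oxidative phosphorylation fell in 15 of 29 members, with all 29 below 0 and a median of -0.35. NDUFAB1, an acyl carrier protein of complex I, was 1.90-fold lower (10.41, 10.29 and 10.28 against 9.38, 9.39 and 9.43). UQCRB and UQCRQ of complex III were 1.89-fold lower and 1.68-fold lower, and the complex I subunit NDUFS3 1.79-fold lower. In glycolysis and the hypoxia response 7 of 33 members rose (21.2%) and 12 fell (36.4%). The shares were 10.4% and 11.9% over all genes and 22.1% and 27.6% over the brightest. The secreted factors VEGFA and ADM were 3.19-fold higher and 2.99-fold higher, and VEGFA is also on the ATF4 list. The prolyl hydroxylase EGLN3 was 2.37-fold lower and lactate dehydrogenase LDHA 1.80-fold lower.

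In the cholesterol list 15 of 25 members fell and 1 rose, with a median of -0.48. DHCR7 stood at 9.44, 9.32 and 9.24 in NT and 7.73, 7.52 and 7.35 in APR-AZA, so the enzyme of the last step of synthesis was 3.49-fold lower. The synthesis enzymes MSMO1, HMGCS1 and LSS were 2.52-fold lower, 2.21-fold lower and 2.20-fold lower. The rise was in the cholesterol exporter ABCA1 (1.47-fold higher).

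Of 18 genes of DNA methylation, the process that 5-azacytidine blocks at the protein level, 4 rose (22.2%) and 3 fell (16.7%). None of the called genes moved by more than 1.53-fold. The shares were 10.4% and 11.9% over all genes and 22.1% and 27.6% over the brightest. The count of called members was 3 or 4 in place of 7 when any one of APR-AZA replicates 1, 2 and 3 or NT replicates 2 and 3 was left out. The number that rose was 2 with arrays centred on their median and with the replicate number as a block. It was also 2 without any 1 of the APR-AZA arrays, NT replicate 1 or 2 or APR replicate 2. The number that fell was 1 without APR-AZA replicate 3 and 0 without NT replicate 3. DNMT1, which copies methylation at replication, read 10.38, 10.43 and 10.50 in NT and 10.28, 10.24 and 10.28 in APR-AZA, with all APR-AZA arrays below all NT arrays, and was not called (-0.17 ± 0.07, adjusted p = 0.0997). The call for DNMT1 changed with a trended and robust variance (adjusted p = 0.0242). The de novo enzyme DNMT3A was 1.29-fold higher and DNMT3B 1.34-fold lower, and the methyl-CpG readers ZBTB38 and ZBTB4 were 1.53-fold higher and 1.32-fold higher. ZBTB4 (adjusted p = 0.0494) lost its call in 11 of 18 settings, among them without either NT replicate 1 or 2 (0.12 and 0.179), and DNMT3B lost its own without APR-AZA replicate 2 (0.0668) or NT replicate 3 (0.0629).

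Azacytidine and pyrimidine metabolism fell in 10 of 31 members (32.3%) and rose in 4 (12.9%). Of the brightest genes 27.6% fell and 22.1% rose, and of all genes 11.9% and 10.4%. UCK2, the kinase that activates 5-azacytidine, read 10.65, 10.69 and 10.58 in NT and 9.88, 9.79 and 9.80 in APR-AZA, 1.76-fold lower. DHODH of pyrimidine synthesis and the nucleoside diphosphate kinase NME1 were 2.26-fold lower and 2.17-fold lower, and the mitochondrial thymidine kinase TK2 was 2.19-fold higher.

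Cancer-testis and germline genes, which DNA methylation keeps silent in many tissues, rose in 2 of 31 members, 6.45% against 10.4% of all genes. Only 16 of the 31 remained with the dimmest 30% of genes left out. Of the 9375 dimmest genes 1.28% were called higher, so low signal limits this count. MAGEA1 stood at 5.93, 5.50 and 5.54 in NT and 6.20, 6.40 and 6.46 in APR-AZA (1.62-fold higher), and MAGEA4 was 1.43-fold higher from 4.20, 4.62 and 4.26 to 4.84, 4.85 and 4.94, and probes of this family may read each other's transcripts. MAGEA1 lost its call without APR-AZA replicate 2 or 3 or NT replicate 2 or 3 (adjusted p = 0.0523 to 0.0687). Replication-dependent histones rose in 12 of 29 members and fell in 2, with H3C1 3.79-fold, H3C3 3.20-fold, H4C1 2.51-fold and H4C2 2.44-fold higher, and probes of these near-identical genes may read each other's transcripts. The histone count fell from 14 in both directions to 8 or 9 without APR-AZA replicate 2 or 3 or NT replicate 2 or 3, with 1 lower in place of 2 each time.

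Among 38 interferon-stimulated genes 13 rose and 3 fell, with a median of 0.18. IRF1 stood at 6.09, 5.92 and 5.89 in NT and 8.12, 8.13 and 8.06 in APR-AZA, so this activator of interferon and antigen presentation genes was 4.40-fold higher. IFI35 and IFI6 were 2.07-fold higher and 2.06-fold higher, and the mitochondrial nucleotide kinase CMPK2 was 2.19-fold lower. Antigen presentation genes were higher in 6 of 24 members and lower in 9. Of all genes 10.4% were higher and 11.9% lower, and of the brightest 22.1% and 27.6%. The share of this list called higher was thus close to that of the brightest genes. HLA-E, of class I, was 1.87-fold higher, and of class II HLA-DRA was 2.15-fold lower (9.79, 9.64 and 9.86 against 8.68, 8.64 and 8.66), HLA-DMB 1.95-fold lower and CIITA, the master activator of class II, 1.91-fold lower. HLA-B, HLA-C, HLA-F and the peptide transporter TAP1 were called higher too, at 0.26, 0.45, 0.55 and 0.46 (log2). HLA-B (adjusted p = 0.0341) lost its call in 8 of 18 settings, with adjusted p up to 0.124 without NT replicate 3.

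NF-kB and inflammatory cytokine genes rose in 19 of 33 members and fell in 3, with a median of 0.48. IL1B read 6.32, 6.42 and 6.44 in the NT arrays and 9.71, 9.63 and 9.69 in the APR-AZA arrays, and this fever-inducing cytokine was 9.74-fold higher. CXCL8 stood at 8.70, 8.52 and 8.75 in NT and 11.82, 11.83 and 11.88 in APR-AZA, and this chemokine of neutrophils was 9.13-fold higher (3.19 ± 0.13, SE, adjusted p = 2.46e-09). TRAF1, an adaptor of TNF receptors, was 5.31-fold higher and TNFAIP2 4.7-fold higher. The 3 that fell were the chemokine CCL20 at -1.02 ± 0.29, the inflammasome sensor NLRP3 at -0.53 ± 0.09 and the interleukin-1 antagonist IL1RN at -0.26 ± 0.07. Without NT replicate 2 only NLRP3 of these was still called. CCL20 also lost its call without APR-AZA replicate 1 or 2 or NT replicate 3 (adjusted p up to 0.105), and IL1RN without APR-AZA replicate 3 or NT replicate 1 and with NT and APR-AZA fitted alone (up to 0.108).

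Immediate early genes rose in 13 of 24 members and fell in 2, FOSL1 at -0.43 ± 0.11 and SRF at -0.30 ± 0.07. JUN stood at 8.11, 7.84 and 7.73 in NT and 9.98, 9.90 and 10.02 in APR-AZA, so this AP-1 subunit was 4.20-fold higher, with ATF3, KLF6 and JUND 3.78-fold, 3.72-fold and 2.97-fold higher. The brakes on MAP kinases rose in 9 of 17 members and fell in 5. DUSP5, which acts on ERK in the nucleus, stood at 7.17, 7.21 and 6.84 in NT and 9.85, 9.94 and 10.01 in APR-AZA (7.25-fold higher). DUSP16, DUSP1 and DUSP10, which act on JNK and p38, were 4.54-fold higher, 4.20-fold higher and 3.54-fold higher. The 5 that fell were the phosphatases DUSP2 (-0.49), DUSP3 (-1.14) and DUSP7 (-0.96) and the Sproutys SPRY1 (-1.24) and SPRY4 (-1.20), all on the log2 scale. DUSP2 (adjusted p = 0.0412) lost its call in 8 of 18 settings, with adjusted p up to 0.16 without NT replicate 1.

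Haematopoietic receptors and their signalling genes rose in 9 of 29 members (31.0%) and fell in 7 (24.1%). Of all genes 11.9% fell, and of the brightest 27.6%. KIT stood at 8.37, 8.66 and 8.68 in NT and 6.53, 6.72 and 6.33 in APR-AZA, so the stem cell factor receptor was 4.11-fold lower (-2.04 ± 0.14, SE, adjusted p = 2.89e-07). FLT3 stood at 6.32, 6.32 and 6.54 in NT and 4.88, 5.13 and 4.93 in APR-AZA, and this receptor kinase of progenitors, often mutated in acute myeloid leukaemia, was 2.66-fold lower (-1.41 ± 0.14, SE, adjusted p = 5.86e-06). Both receptors of progenitors were thus lower in every APR-AZA array. IL10RA, the interleukin-10 receptor, was 4.66-fold higher and CSF2RA, the GM-CSF receptor, 2.71-fold higher. Progenitor transcription factors fell in 9 of 30 members and rose in 2. Next to MYB and ZBTB16, the myeloid repressor GFI1 was 4.18-fold lower, and the 2 that rose were BCL6 (2.57-fold higher) and the myeloid factor SPI1 (1.46-fold higher).

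Primary granule proteins fell in 8 of 14 members and rose in 1, the protease inhibitor SERPINB1 (1.58-fold higher). Beside ELANE and PRTN3, the eosinophil-derived ribonuclease RNASE2 and azurocidin, AZU1, were 4.62-fold lower and 4.05-fold lower. Markers of monocyte and macrophage maturation rose in 16 of 31 members and fell in 3. Next to C5AR1 and ITGAX, the fungal sensor CLEC7A stood at 4.43, 4.36 and 4.65 in NT and 8.03, 7.83 and 8.03 in APR-AZA (11.2-fold higher). TREM1, an amplifying receptor of inflammation, was 10.3-fold higher. The 3 that fell were the matrix proteoglycan VCAN at -1.05 ± 0.10, the calprotectin subunit S100A9 at -0.30 ± 0.09 and the receptor TLR2 at -0.23 ± 0.07. S100A9 and TLR2 both lost their call without APR-AZA replicate 2 or 3 or NT replicate 1 or 2, and TLR2 also without APR-AZA replicate 1 and with NT and APR-AZA fitted alone (adjusted p up to 0.0859 and 0.0878).

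Apoptosis genes changed on both sides. Of 26 proapoptotic genes 10 rose (38.5%) and 7 fell (26.9%), against 10.4% and 11.9% of all genes and 22.1% and 27.6% of the brightest. BMF stood at 6.32, 6.11 and 5.97 in NT and 8.58, 8.72 and 8.58 in APR-AZA (5.61-fold higher), and PMAIP1 stood at 8.20, 8.43 and 8.36 and 10.53, 10.47 and 10.52 (4.54-fold higher), both BH3-only proteins that bind antiapoptotic BCL2 members. BBC3, a further BH3-only gene, was 1.56-fold higher (adjusted p = 0.000891). The TRAIL receptor TNFRSF10B was 2.92-fold higher while its ligand TNFSF10 was 8.77-fold lower. The count of called proapoptotic genes was 17 and fell to 11 without APR-AZA replicate 2, with 4 lower in place of 7. Of 11 antiapoptotic genes 7 rose and 1 fell, BCL2, at 10.49, 10.49 and 10.60 in NT and 8.96, 8.86 and 8.96 in APR-AZA (3.02-fold lower). BCL2A1 was 3.22-fold higher, the caspase-8 inhibitor CFLAR 1.78-fold higher and MCL1 1.68-fold higher.

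Of 33 p53 targets 13 rose (39.4%) and 5 fell (15.2%), with a median of 0.17, and 3 fell without NT replicate 2 or 3. Of all genes 10.4% rose and 11.9% fell, and of the brightest 22.1% and 27.6%. TP53INP1 was 5.94-fold higher and the KIT ligand KITLG 4.10-fold higher, and SESN2 and PMAIP1 stand on this list too. CDKN1A stood at 5.41, 5.30 and 5.42 in NT and 6.77, 6.65 and 6.52 in APR-AZA, so the cell cycle inhibitor p21 was 2.41-fold higher (adjusted p = 7.23e-07). MDM2 stood at 9.03, 9.15 and 9.30 in NT and 9.04, 8.97 and 8.96 in APR-AZA, with overlapping groups, and the p53 ubiquitin ligase was not called (-0.17 ± 0.10, adjusted p = 0.288).

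Among D cyclins and CDK inhibitors 4 of 14 members rose (28.6%) and 1 fell (7.14%), the kinase CDK4 at -0.61 ± 0.12. The inhibitors CDKN1C, CDKN1B and CDKN2D were 2.42-fold higher, 1.54-fold higher and 1.71-fold higher. G1/S and replication genes fell in 14 of 33 members and rose in 2. The uracil glycosylase UNG was 1.98-fold lower, POLE2, of a replicative polymerase, 1.65-fold lower and GINS1, of the replicative helicase, 1.63-fold lower, while cyclin CCNE2 was 1.90-fold higher. Of 34 G2/M genes 4 rose (11.8%) and 7 fell (20.6%). Over all genes the shares were 10.4% and 11.9%, and over the brightest 22.1% and 27.6%. The excess of falls was lost without any 1 of 4 arrays. Without APR-AZA replicate 1 or NT replicate 1, 4 rose and 4 fell, without APR-AZA replicate 3, 4 rose and 3 fell, and without NT replicate 3, 5 rose and 2 fell. MAD2L1 of the spindle checkpoint was 1.74-fold lower and the phosphatase CDC25A 1.48-fold lower, whereas CDC25C was 1.72-fold higher and the spindle protein PRC1 1.5-fold higher. Among 29 genes of DNA repair and damage signalling 12 fell and 1 rose, the ligase LIG4 at 0.50 ± 0.12. ERCC2, APEX1, WRN and ATR, genes of excision repair, helicase and checkpoint functions, were 1.70-fold, 1.65-fold, 1.63-fold and 1.62-fold lower.

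The combination was then set against each drug alone, in the same fit of all 12 arrays. Against AZA alone limma called 0 of 28125 genes (0.0%), with 1318 genes (4.69%) at an unadjusted p under 0.05. The 95% confidence interval of the difference had a median half-width of 0.23 on the log2 scale, a factor of 1.18. For 99.5% of genes the interval lay within 2-fold of AZA in either direction, and for 93.6% within 1.5-fold. In the comparison with NT those shares were already 92.7% and 74.2%. Among the 6279 genes called against NT, 99.6% had an interval within 2-fold of AZA. These intervals are unadjusted, and a p that misses the threshold does not show that the 2 treatments act alike. The median difference of the 36 lists from AZA ran from -0.08 (metallothioneins and zinc transporters) to 0.07 (glutathione, peroxiredoxin and glutaredoxin enzymes). The smallest p belonged to GGPS1, which makes a lipid donor for protein prenylation, at -0.43 ± 0.08 (log2, SE, adjusted p = 0.986).

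Among the 15 largest increases the difference from AZA ran from -0.26 to 0.32 on the log2 scale, with 13 of 15 above 0. Among the 15 largest decreases it ran from -0.53 to 0.26, with 12 below 0. The 2 lists of 15 were chosen on the same APR-AZA arrays, so those counts carry no test. STAR stood lowest of them against AZA, at -0.53 ± 0.14 with an interval of -0.82 to -0.23, followed by RXFP1 at -0.41 ± 0.09 and GABRA4 at -0.37 ± 0.09. SRXN1 lay at 0.31 ± 0.08 (0.14 to 0.47), NQO1 at -0.01 ± 0.09 (-0.21 to 0.20) and FLT3 at -0.02 ± 0.14 (-0.32 to 0.27). None of these differences was called.

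Against APR alone limma called 5813 genes (20.7%), 2659 higher (9.45%) and 3154 lower (11.2%). The comparisons with NT and with APR share the APR-AZA arrays, so their values are given side by side. All 15 largest increases and all 15 largest decreases against NT were called against APR as well. CLDN1 was 71.0-fold higher than with APR, DDIT4 35.1-fold, ORM1 33.0-fold, BET1-AS1 21.2-fold and CD101 19.2-fold higher. The 5 largest decreases against APR were BTLA (13.9-fold), LOC105375878 (11.8-fold), MYB (8.86-fold), P2RY8 (7.41-fold) and TNFSF10 (7.38-fold). NQO1 was 3.37-fold higher than with APR (1.75 ± 0.09, SE), beside 6.31-fold against NT.

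**Figure D4:**
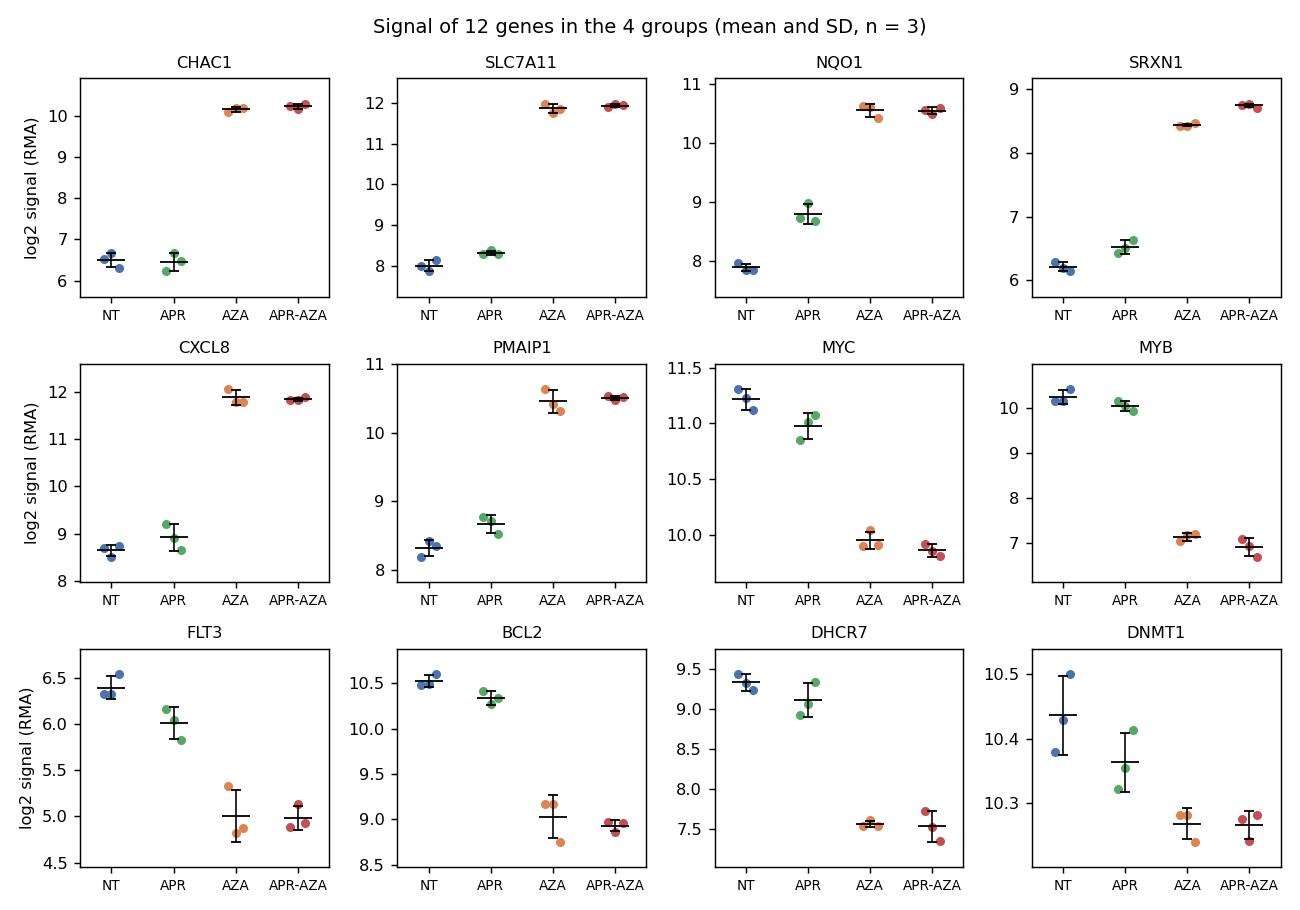
Log2 signal of 12 genes in the 3 arrays of each group (points) with the mean and SD (bars), each panel on its own vertical axis, which does not start at 0. In SLC7A11 the group means are 8.0 (NT), 8.31 (APR), 11.86 (AZA) and 11.93 (APR-AZA), and in NQO1 they are 7.89, 8.80, 10.55 and 10.55.

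**Figure D5:**
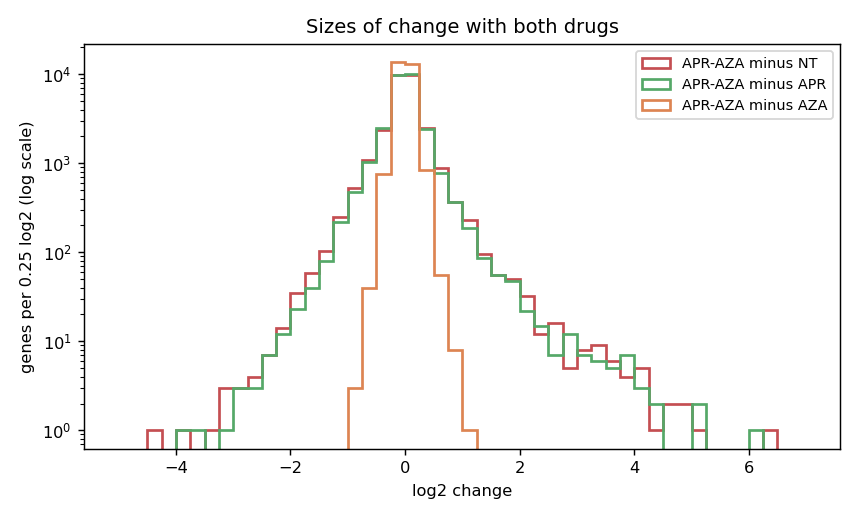
Number of genes, on a log scale, by log2 change in bins of 0.25 for APR-AZA minus NT, minus APR and minus AZA. The differences from AZA stay near 0, with 1 gene of 28125 at least 2-fold apart, while those from NT and from APR reach to 79.7-fold and 71.0-fold (CLDN1).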

How the data were processed

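RNA of SKM1 cells was labelled from 250 ng and hybridised to Affymetrix arrays, per the labels' protocols. The authors deposited log2 values made by robust multi-array averaging (RMA) in Partek, per the submitters' processing notes. Their versions, the chip definition and the build were not given in the sources used here. Of 29413 rows, 28129 carried 1 gene symbol and 1284 none. For 4 symbols on several rows the brightest was kept, leaving 28125 genes. All 12 arrays entered 1 model of 4 groups (lmFit and eBayes of limma 3.58.1, run in R 4.3.3, with 8 residual degrees of freedom). P-values were adjusted over all genes by Benjamini-Hochberg, and an adjusted p under 0.05 made a call. Fold changes are of RMA signals, which understate changes of dim genes. Array medians lay between 4.70 and 4.77 in NT and APR-AZA. The fit was tested on simulated data.

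Named genes were the 15 largest called and non-overlapping changes each way against NT, 5 each way against APR, up to 4 called members a list, and 12 preset genes. Members, lists and rules were chosen with earlier results of these data known. The main fit did not pair samples by replicate number. Deviations of same-numbered NT and APR-AZA arrays correlated at -0.03, -0.10 and 0.01, and those of differently numbered arrays at -0.12 to 0.16. These values cannot show whether same-numbered arrays were handled together. Promoters came from RefSeq (GRCh38.p14). Alternatives covered a signal filter, renormalization, the variance model, the samples fitted, a replicate block and leaving out each array.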

Additional observations from a re-analysis of the deposited data

Results flagged for a closer look

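Rows without a gene symbol also carried signal that differed between APR-AZA and NT, outside the genes described above. Of 1284 such rows, 132 were called higher (10.3%) and 129 lower (10%) by limma at an adjusted p under 0.05, and 26 and 20 of them by at least 2-fold. Among the genes with a symbol the shares were 10.4% and 11.9%, and 1.88% and 1.71% at 2-fold or more. Rows without a symbol were thus called about as often as named genes. What these rows measure is not given in the sources used here.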

How the results depend on the processing

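Counts of called genes stayed within 1.5 times those reported in all 3 comparisons under 18 alternatives. Leaving out 1 array at a time gave 5317 to 6378 calls against NT (2487 to 2966 higher, 2804 to 3412 lower) and 4921 to 5882 against APR (2249 to 2685 higher, 2647 to 3197 lower). Against AZA limma called 0 genes under each alternative. With the replicate number as a replicate block the counts were 5857 against NT, 5436 against APR and 0 against AZA. The other 5 settings gave 6001 to 6512 against NT. Of 2880 values for 160 named genes, 2856 kept direction and side of the threshold and none reversed. The exceptions lay in PSMA2, DNMT3B, ZBTB4, MAGEA1 and DNMT1. Of 48 genes named besides, 10 lost their call in at least 1 setting (ATG5, CCL20, DUSP2, EPCAM, FARSA, HLA-B, IL1RN, KRT19, S100A9 and TLR2), and none reversed. Total calls of a list moved by over 1.5 times in 16 of 648 cases, in 5 lists, and calls in 1 direction in 43 of 1296, in 11 lists. Small counts among the 11 were the cholesterol list (2 in place of 1 higher with the compared groups fitted alone and without AZA replicate 1) and DNA repair (2 in place of 1 higher after quantile normalization). With 3 arrays a group and 8 residual degrees of freedom, the median standard error was 0.11 (log2), and the smallest called change was 0.19. Dim genes were called seldom, so a list of dim genes with few calls is limited by signal over background.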

Other observations

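Gene families beyond the lists were counted after values had been seen, with no test, against 10.4% higher and 11.9% lower over all genes. Mitochondrial ribosomal proteins, taken by symbol, were lower in 55 of 76 genes (72.4%) and higher in 0. On the list of cytosolic ribosomal proteins 2 of 23 were lower, but that list held chosen members, so the 2 sets were not formed alike. Small nucleolar RNAs guide chemical modification of ribosomal RNA. H/ACA box members were higher in 21 of 89 (23.6%) and lower in 10 (11.2%). C/D box members were higher in 13 of 224 (5.80%) and lower in 30 (13.4%), and the difference between the classes was not tested. The median small nucleolar RNA read 6.3 in NT, against 4.74 over all genes. Among the brightest genes 22.1% were higher and 27.6% lower, and the part of brightness in these counts was not tested. Many small nucleolar RNAs lie within introns of host genes, and 7 of 24 small nucleolar RNA host genes (29.2%) were lower and 1, SNHG32, higher. Zinc finger genes of the ZNF series were lower in 94 of 516 (18.2%) and higher in 36 (6.98%). Olfactory receptors, mostly dim on the array, were higher in 5 of 356 and lower in 5 (1.4% each).

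Some strong changes were neighbours in the genome. AZU1, PRTN3 and ELANE, the granule genes of chromosome 19, and the nearby PLPPR3 were all at least 4-fold lower. CLEC7A and OLR1, lectin receptors of chromosome 12, were higher by 3.48 and 3.28 on the log2 scale, SYT11 and RIT1 of chromosome 1 by 3.23 and 2.77, and LINC02863 and IRF1 of chromosome 5 by 2.27 and 2.14. CCPG1, a receptor for ER autophagy, rose by 3.26 together with MIR628 and PIERCE2 beside it at 2.09 and 2.24. Probes of overlapping neighbours may read the same transcript. Among chemoattractant receptors 4 of 21 were higher (19.0%), led by C5AR1, and 3 lower (14.3%), which were CCR2, CXCR2 and CCR1.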
